A study of Mus musculus with 3 samples.

Results

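CD4 single-positive (CD4 SP) thymocytes without surface CD25, Foxp3 or CD73 were examined where they shared expression clusters with CD25+ regulatory T cell (Treg) progenitors. The cells were chosen by 2 deposited labels, the CD4 SP hashtag and cluster number 5 or 7. The rule found 83 cells of 12208 in the series, 65 in cluster 5 and 18 in cluster 7. Neither label is itself a T cell receptor (TCR) sequence. The clusters were made from the expression of these same cells, so expression differences between clusters are given as descriptions. Whether transcripts of TCR segments entered the clustering could not be checked.

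The thymi of 8 female mice aged 7 to 12 weeks were pooled. The mice, labelled C56Bl/6-, combined Tcli{beta}, TCR{alpha}+/- and Foxp3-GFP, so every group compared here had the transgenic TCliβ chain, a single working TCRα allele and the Foxp3 reporter. Thymocytes with surface TCR-Vα2 were sorted as CD4+CD8+ cells (double-positive, DP), CD4 SP, progenitors with CD25 (CD25+ TRP) or with little Foxp3 (Foxp3lo TRP), and Tregs without (CD73- Treg) or with CD73 (CD73+ Treg). CD8+ cells had been depleted for all but DP. Each of the 6 populations got 1 hashtag, and all were carried through the same 10x run, so no population has a replicate and cells cannot be assigned to a mouse. No p-value is therefore given. Intervals in parentheses are exact Clopper-Pearson 95% intervals, which cover counting error only, and cells of a clone are not independent of each other.

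In the thymus, a developing CD4 T cell whose TCR binds a self peptide strongly can enter the Treg lineage. It may first show CD25, the α chain of the interleukin-2 receptor, or a low level of Foxp3, the transcription factor that defines Tregs, and both kinds of cell act as Treg progenitors. CD73 is an ecto-enzyme found on more mature and on recirculating Tregs. With the β chain fixed, specificity differs between cells mainly through the third complementarity-determining region of the α chain (CDR3α), where a TRAV and a TRAJ segment are joined and bases may be added or lost. Vα2 is the product of the TRAV14 gene family, which exists in many near-identical copies.

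The gene rows of the expression matrix, as used here, carry no names. The CD4 SP label could thus not be checked against Cd4, Il2ra, Foxp3 or other markers, no gene outside the TCR locus is named below, and markers of other cell types could not be counted. Barcodes tied the libraries together: 7379 of the 12208 cells had a TCR contig, and no barcode was repeated in the matrix. The 83 cells held 253836 unique molecular identifiers (UMIs, counted mRNA molecules), against 5059387 in the 1190 CD25+ TRP cells of the same clusters.

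The CDR3α sequences below are shown because they carry the repertoire results: the 3 that more than 1 of the 83 cells carried, and examples whose protein sequence also occurred in Tregs. The bases are those of the 83 cells and were not always the bases found in Tregs. Each is named by its residues between the anchoring cysteine and the last phenylalanine or tryptophan, and CDR3α lengths below count both of these. The bases are given 5′ to 3′ with both anchor codons, with capitals for bases that match the germline end of neither the assigned TRAV nor the assigned TRAJ segment.

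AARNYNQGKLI, TRAJ23, without added bases: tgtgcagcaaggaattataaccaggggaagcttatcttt
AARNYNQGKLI, TRAJ23, with 1 added base: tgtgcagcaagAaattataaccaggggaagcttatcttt
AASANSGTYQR, TRAJ13: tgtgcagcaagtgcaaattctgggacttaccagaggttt
AASWNSNNRIF, TRAJ31: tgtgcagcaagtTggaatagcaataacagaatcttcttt
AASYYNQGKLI, TRAJ23: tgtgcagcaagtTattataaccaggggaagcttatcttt
AASSGTYQR, TRAJ13: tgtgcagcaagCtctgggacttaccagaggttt
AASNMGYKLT, TRAJ9: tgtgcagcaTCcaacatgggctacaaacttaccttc
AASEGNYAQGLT, TRAJ26: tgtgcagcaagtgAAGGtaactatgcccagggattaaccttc
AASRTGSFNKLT, TRAJ4: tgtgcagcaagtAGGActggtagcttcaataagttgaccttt

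Both forms of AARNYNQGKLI read the same protein, and 2 cells carried each form. The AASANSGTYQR sequence is made entirely of germline bases, and all 4 cells with it had the same nucleotide sequence. AASWNSNNRIF needed 1 base beyond the germline and was found in 2 cells. In the last 2 sequences, 4 bases matched neither segment. The segments lie in the TCRα locus on chromosome 14, plus strand, in GRCm38 with GENCODE M21: TRAJ31 at chr14:54187895-54187951, TRAJ23 at chr14:54196081-54196140 and TRAJ13 at chr14:54205741-54205797, each annotated as a TR J gene upstream of the constant gene TRAC at chr14:54220521-54224206.

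Few CD4 SP cells lay in clusters 5 and 7. The 83 cells were 3.41% (2.72 to 4.21) of the 2436 CD4 SP cells, with 2.67% (2.07 to 3.39) in cluster 5 and 0.739% (0.438 to 1.17) in cluster 7. Of the CD25+ TRP cells, 47.5% (45.6 to 49.5) were there, with 651 cells in cluster 5 and 539 in cluster 7. The CD4 SP cells were therefore placed mostly in cluster 5, while the CD25+ TRP cells were nearly evenly divided. Among all 1765 cells of both clusters, CD4 SP cells were 4.70% (3.76 to 5.80), 6.89% (5.36 to 8.70) of cluster 5 and 2.19% (1.30 to 3.44) of cluster 7. The share was above that of DP, of which 0.199% (0.0729 to 0.432) lay in these clusters. It was below the shares of Foxp3lo TRP at 9.83%, CD73+ Treg at 11.4% and CD73- Treg at 16.5%, with no overlap of the intervals.

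**Figure D1:**
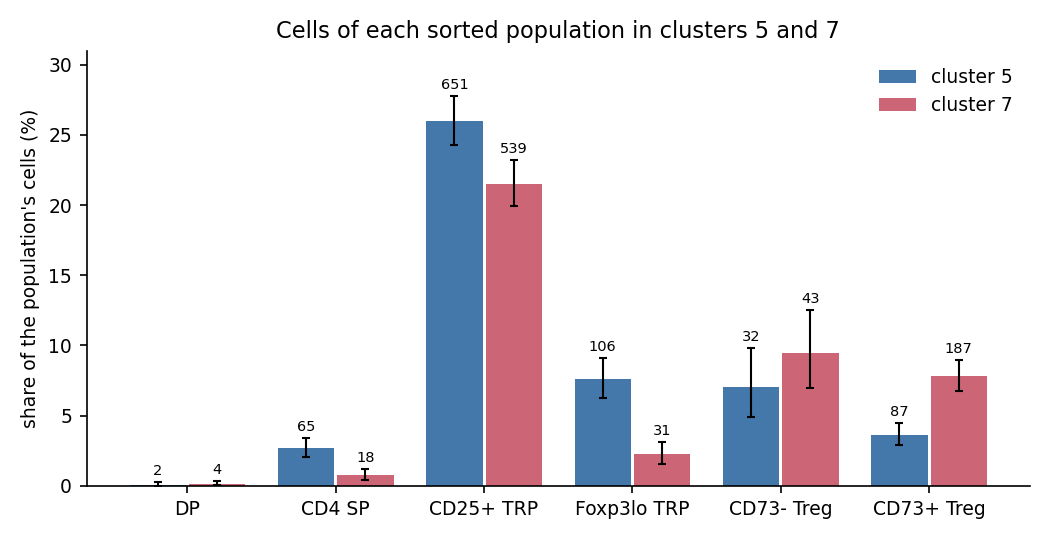
Share of each sorted population's cells (vertical axis, %) that the deposited clustering placed in cluster 5 (blue) or cluster 7 (red). Bars are shares, error bars exact 95% intervals, and the number above each bar is its count of cells: 65 and 18 of 2436 CD4 SP cells against 651 and 539 of 2503 CD25+ TRP cells.

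The depth of the CD4 SP cells in these clusters was closer to that of other CD4 SP cells than to that of their CD25+ neighbours. They had a median of 2824 UMIs per cell, from 1060 to 9027, and the CD4 SP cells of other clusters had 2714. The CD25+ TRP cells of clusters 5 and 7 had 3776.5, from 715 to 20113. The gap was present within each cluster, with 2671 against 3379 UMIs in cluster 5 and 3402.5 against 4398 in cluster 7. The medians of genes detected per cell were 1277 for the CD4 SP cells of clusters 5 and 7, 1586 for the CD25+ TRP cells there and 1227 for other CD4 SP cells. At an equal 1000 UMIs per cell, calculated without random draws, these became 590, 605 and 585. The medians were thus closer at equal depth. Of the CD25+ TRP cells 3, of the 2353 other CD4 SP cells 25, and of the 83 cells none had too few UMIs for this.

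An α chain was read in a similar share of these CD4 SP cells and of their CD25+ neighbours. Of the 83 cells, 55 had exactly 1 productive α chain, which is 66.3% (55.1 to 76.3), 24 had none and 4 had more than 1. The CD25+ TRP cells of clusters 5 and 7 had exactly 1 chain in 68.1% (65.3 to 70.7) and the other CD4 SP cells in 76.2% (74.5 to 78.0). The interval for the 83 cells overlaps both. Cells with more than 1 productive α chain were 4.82% (1.33 to 11.9) of the 83, 4.12% (3.06 to 5.41) of the CD25+ TRP cells and 3.57% (2.86 to 4.40) of other CD4 SP cells. The chain was carried by a median of 19 UMIs, from 5 to 42, as against 26 in the CD25+ TRP cells and 19 in other CD4 SP cells. Contigs of TRBV19, the β segment read in most cells that had any β contig, were found in 7 of the 83 cells, 8.43% (3.46 to 16.6). They were found in 14.4% (12.4 to 16.5) of the CD25+ TRP cells and 15.7% (14.2 to 17.2) of other CD4 SP cells, although the TCR library was enriched for α.

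All 55 single chains used TRAV14 copies, as the Vα2 sort selects. TRAV14D-3-DV8 (chr14:53078452-53079045) was assigned in 15 cells, TRAV14-1 (chr14:53554022-53554558) in 13, TRAV14N-3 (chr14:53370077-53370575) in 11, TRAV14N-1 (chr14:53166626-53167178) in 7 and TRAV14-2 (chr14:53640701-53641225) in 4. TRAV14N-3 made up 20% (10.4 to 33.0) of the chains against 9.14% (7.24 to 11.3) in CD25+ TRP cells of the same clusters and 10.0% (8.68 to 11.5) in other CD4 SP cells. The assignment among near-identical copies is uncertain, since the same AASWNSNNRIF nucleotide sequence was assigned once to TRAV14D-3-DV8 and once to TRAV14N-3. For no TRAV segment did the intervals lie apart, with 0% of 9 segments called against the CD25+ TRP cells and 0% of 12 against other CD4 SP cells.

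TRAJ use was broad, with 26 segments in 55 cells. TRAJ23 led with 9 cells, 16.4% (7.77 to 28.8), before TRAJ13 with 6, TRAJ31 with 5 and TRAJ26 (chr14:54194490-54194549) with 4. TRAJ23 made up 11.4% (9.25 to 13.7) of CD25+ TRP cells in the same clusters and 5.91% (4.86 to 7.10) of CD4 SP cells elsewhere. It was the only segment whose interval lay apart from that of other CD4 SP cells, 1 of 42 segments or 2.38%. Counted once per different CDR3α, TRAJ23 was 12.5% (4.73 to 25.2) against 5.71% (4.29 to 7.42) in other CD4 SP cells. These intervals overlap, so the call ended. Against the CD25+ TRP cells of clusters 5 and 7, 0% of 41 TRAJ segments were called. TRAJ13 was 10.9% (4.11 to 22.2) of the CD4 SP cells of clusters 5 and 7, 8.02% of the CD25+ TRP cells there and 10.7% of other CD4 SP cells. TRAJ7, 6.67% (5.05 to 8.61) of the CD25+ TRP cells, was in 0 of 55 cells, a share with an exact upper limit of 6.49%, so the intervals overlap. Counted once per different CDR3α it was 2.21% (1.15 to 3.83) of the CD25+ TRP sequences, and in other CD4 SP cells it was 1.45% (0.949 to 2.12) of cells.

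The joins had similar lengths in all 3 groups. The median CDR3α length was 13 residues, with 24 cells at 13 and 18 at 14, and the whole range ran from 11 to 17. The median was 13 in CD25+ TRP cells of the same clusters and 14 in other CD4 SP cells. Chains without a base beyond the germline were 11 of 55, or 20% (10.4 to 33.0), as against 16.1% (13.6 to 18.8) in the CD25+ TRP cells and 18.9% (17.1 to 20.8) in other CD4 SP cells. The median number of such bases was 2, 3 and 2, in that order.

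The 55 cells held 48 different CDR3α. Calculated for draws of 55 cells, the CD25+ TRP cells of clusters 5 and 7 would give 50.8 ± 2.05 (SD over draws) and other CD4 SP cells 49.1 ± 2.38, and 48 lies within 2 SD of both. No sequence was carried by more than 4 cells, 7.27% (2.02 to 17.6) of the 55.

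The 2 leading sequences were distributed in different ways across the populations. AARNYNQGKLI had its highest share in CD73+ Treg and its lowest in DP. It was found in 1 of 1266 DP cells, in 0.973% (0.578 to 1.53) of CD4 SP, 2.13% (1.51 to 2.91) of CD25+ TRP, 3.11% (2.02 to 4.56) of Foxp3lo TRP, 2.24% (0.732 to 5.15) of CD73- Treg and 4.82% (3.61 to 6.30) of CD73+ Treg. Within CD4 SP it was in 4 of 55 cells of clusters 5 and 7 and in 14 of 1794 cells elsewhere, 0.780% (0.427 to 1.31). This was the 1 CDR3α of 937, or 0.107%, whose interval lay apart between these groups. Only the 3 sequences carried by more than 1 of the 55 cells could be called. A sequence in 1 cell had a lower limit of 0.0460%, below the upper limit of 0.205% for 0 of 1794. One in 0 of 55 cells had an upper limit of 6.49%, above the largest share elsewhere, 6.08%. Seen the other way, 4 of the 18 CD4 SP cells with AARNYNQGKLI, 22.2% (6.41 to 47.6), lay in clusters 5 and 7, against 2.97% (2.25 to 3.85) of all CD4 SP cells with 1 α chain. In CD25+ TRP, 24 of 38 cells with it did, 63.2% (46.0 to 78.2), against 45.4% (43.1 to 47.8) of all such cells.

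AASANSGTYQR, in contrast, was the most frequent sequence of CD4 SP. It was found in 6.11% (5.06 to 7.30) of CD4 SP, 3.37% (2.58 to 4.31) of CD25+ TRP, 4.73% (3.37 to 6.43) of Foxp3lo TRP, 0.448% (0.0114 to 2.47) of CD73- Treg and 0.378% (0.103 to 0.966) of CD73+ Treg. Its share in the CD4 SP cells of clusters 5 and 7 was close to that of other CD4 SP cells at 6.08% (5.02 to 7.28). In CD25+ TRP cells of clusters 5 and 7 it was 8 of 810, 0.988% (0.427 to 1.94). It was the 1 CDR3α of 572, or 0.175%, whose interval lay apart from these neighbours, and only the 2 leading sequences could be called. Only 4 of 113 CD4 SP cells with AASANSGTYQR lay in clusters 5 and 7, 3.54% (0.973 to 8.82), near the share of all CD4 SP cells. In CD25+ TRP, 8 of 60 did, 13.3% (5.94 to 24.6), a lower share than among all CD25+ TRP cells with 1 chain.

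**Figure D2:**
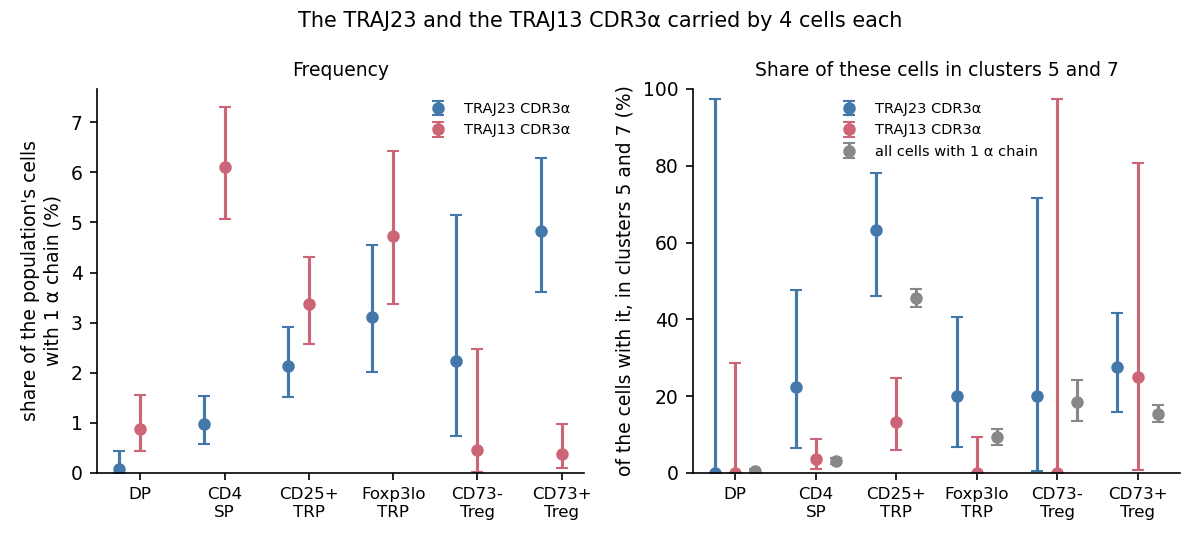
Left, share of each population's cells with 1 α chain (vertical axis, %) that carried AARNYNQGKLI (TRAJ23, blue) or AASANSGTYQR (TRAJ13, red). Right, of those cells the share in clusters 5 and 7, with all cells of the population that had 1 α chain in grey. Points are shares and bars exact 95% intervals. In CD4 SP the TRAJ23 sequence was in these clusters at 22.2% and the TRAJ13 sequence at 3.54%, and intervals from 1 or a few cells span most of the axis.

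AASWNSNNRIF, the third repeated sequence, was in 6 CD4 SP cells, 2 of them in cluster 5. It was also in 5 CD25+ TRP, 6 Foxp3lo TRP and 1 CD73+ Treg cell.

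By where else their CDR3α was seen, the 55 cells fell into 4 classes. In 23 cells, 41.8% (28.7 to 55.9), the sequence also occurred in CD73- or CD73+ Tregs. In 16, 29.1% (17.6 to 42.9), it occurred in CD25+ or Foxp3lo TRP and in no Treg. In 3 it occurred elsewhere only in CD4 SP or DP cells, and in 13, 23.6% (13.2 to 37.0), in no other cell. Sequences seen in no other cell had a median of 4 bases beyond the germline and those shared with Tregs had 1.

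The 23 cells shared with Tregs carried 16 different sequences, and the 2 leading ones account for 8 of the cells. The 13 sequences carried by 1 cell each were of several kinds. Some were common in CD4 SP: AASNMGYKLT was in 21 other CD4 SP cells, 11 CD25+ TRP of other clusters and 3 Tregs, and a TRAJ12 sequence was in 23 other CD4 SP cells and 1 Treg. Others were more frequent among progenitors and Tregs than in CD4 SP. AASSGTYQR, a short TRAJ13 chain, was in 3 other CD4 SP cells, in 7 CD25+ TRP cells of clusters 5 and 7, and in 10 CD73+ Tregs. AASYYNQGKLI, a TRAJ23 chain, was in 1 other CD4 SP cell, 7 CD25+ TRP and 6 Tregs. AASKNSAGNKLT (TRAJ17) and a TRAJ40 sequence were in no other CD4 SP cell and in 1 CD25+ TRP cell of clusters 5 and 7 and 1 Treg each. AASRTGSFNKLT was shared with 1 CD73+ Treg and with no other cell. The remaining 6 sequences were in 3 to 16 other CD4 SP cells and in 1 to 5 Tregs.

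The same protein sequence was not always the same rearrangement. Of the 23 cells, 15 had the same CDR3α nucleotide sequence and TRAJ as a Treg, 65.2% (42.7 to 83.6), and these covered 8 of the 16 protein sequences. The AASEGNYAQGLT cell was one of those that did not match: the protein was in 5 other CD4 SP, 9 CD25+ TRP, 9 Foxp3lo TRP and 5 Treg cells, and its nucleotide sequence was in 0 of them. The bases shown for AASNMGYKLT were in 1 other CD4 SP cell, 0 CD25+ TRP and 0 Treg cells. Those shown for AASSGTYQR were in 0 other CD4 SP, 0 CD25+ TRP and 1 Treg cell. The bases of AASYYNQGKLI were in 4 Treg cells and those of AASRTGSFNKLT in 1. For the 29 cells whose protein sequence recurred in other CD4 SP cells, the nucleotide sequence did so in 27, 93.1% (77.2 to 99.2). The intervals of both shares overlap.

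Sharing with each population was compared with that of the CD25+ TRP cells of clusters 5 and 7 and of CD4 SP cells elsewhere. Of the 55 cells, 54.5% (40.6 to 68.0) carried a CDR3α also found in Foxp3lo TRP, against 39.1% (35.8 to 42.6) of the CD25+ TRP cells and 41.0% (38.7 to 43.3) of other CD4 SP cells. For CD73- Treg the shares were 23.6% (13.2 to 37.0), 25.9% (22.9 to 29.1) and 14.5% (12.9 to 16.2). For CD73+ Treg they were 38.2% (25.4 to 52.3), 39.4% (36.0 to 42.8) and 30.9% (28.7 to 33.1). With both Treg groups the CD4 SP cells of clusters 5 and 7 had a value near that of their CD25+ neighbours, and the intervals were wide enough to hold the value of other CD4 SP cells as well. Without the cells that carry the 2 leading sequences, the values were 10.6% (3.55 to 23.1) with CD73- Treg and 27.7% (15.6 to 42.6) with CD73+ Treg. The comparison groups were not recalculated in this way. For DP the shares were 34.5%, 32.7% and 37.5%.

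With CD25+ TRP of other clusters, 52.7% (38.8 to 66.3) of the 55 cells shared a sequence, close to the 54.2% (51.8 to 56.5) of other CD4 SP cells and above the 42.1% (38.7 to 45.6) of CD25+ TRP cells in clusters 5 and 7, with overlapping intervals. With the CD25+ TRP cells of clusters 5 and 7 themselves, the 55 cells shared a sequence in 47.3% (33.7 to 61.2), and other CD4 SP cells in 36.2% (33.9 to 38.4). With CD4 SP cells elsewhere the 55 cells shared one in 52.7% (38.8 to 66.3), and the CD25+ TRP cells of clusters 5 and 7 in 38.9% (35.5 to 42.3).

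**Figure D3:**
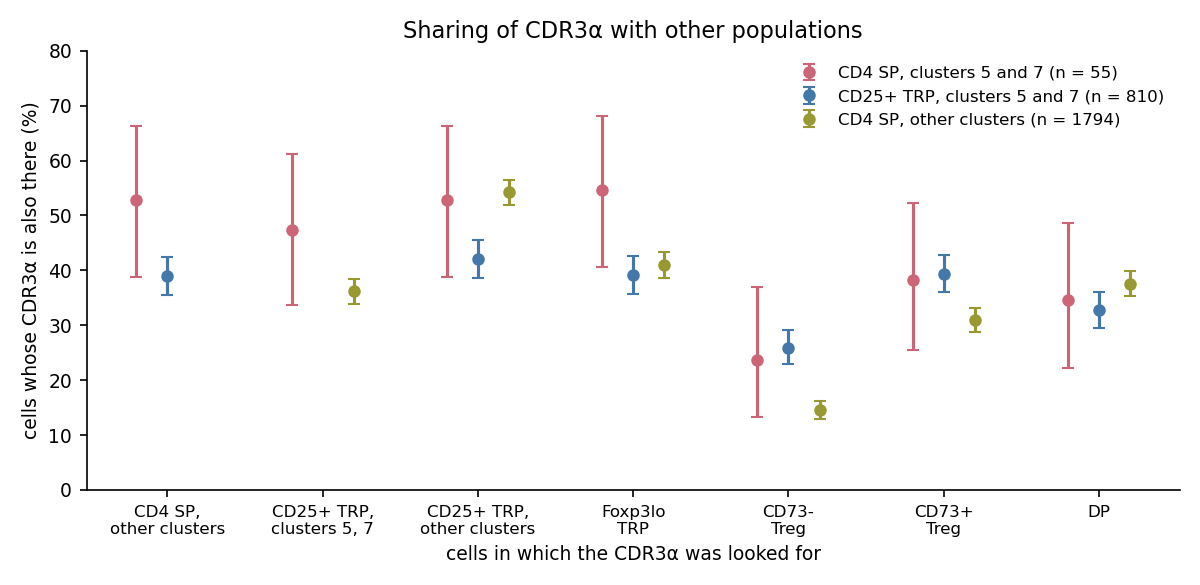
Share of cells (vertical axis, %) whose CDR3α protein sequence was also found among the cells named on the horizontal axis, for CD4 SP cells of clusters 5 and 7 (red), CD25+ TRP cells of clusters 5 and 7 (blue) and CD4 SP cells of other clusters (yellow-green). Points are shares and bars exact 95% intervals. Every red interval overlaps the others beside it, and the targets differ in size, so heights are compared within a target only.

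These shares grow with the size of the population searched. With each population set to the number of cells in CD73- Treg, the expected shares for the 55 cells were 35.6% with CD25+ TRP of other clusters, 34.8% with Foxp3lo TRP, 32.4% with CD4 SP elsewhere, 26.8% with CD25+ TRP of clusters 5 and 7, 23.6% with CD73- Treg, 19.6% with CD73+ Treg and 13.9% with DP. For the CD25+ TRP cells of clusters 5 and 7 the highest were CD73- Treg at 25.9% and Foxp3lo TRP at 23.7%, and CD4 SP elsewhere gave 15.9%. For CD4 SP cells of other clusters, CD73- Treg gave 14.5% and CD73+ Treg 13.0%. These expected values have no interval. The 55 cells and other CD4 SP cells both had their highest values with CD25+ TRP outside these clusters, followed by Foxp3lo TRP. That order was thus not particular to the 55 cells. Their CD25+ neighbours had the highest value with CD73- Treg.

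Morisita's index weighs each sequence by its frequency in both groups and is near 1 when both are drawn from the same repertoire. For the 55 cells it was 1.01 with Foxp3lo TRP, 0.964 with CD25+ TRP of other clusters, 0.853 with CD4 SP elsewhere, 0.582 with CD25+ TRP of clusters 5 and 7, 0.447 with CD73- Treg, 0.431 with CD73+ Treg and 0.220 with DP. The CD25+ TRP cells of clusters 5 and 7 had 0.979 with CD73- Treg, 0.750 with CD73+ Treg and 0.348 with CD4 SP elsewhere. CD4 SP cells of other clusters had 0.973 with CD25+ TRP of other clusters, 0.796 with Foxp3lo TRP and 0.348 with CD25+ TRP of clusters 5 and 7. With CD73- Treg they had 0.201 and with CD73+ Treg 0.125. With both Treg groups the 55 cells lay between their CD25+ neighbours and other CD4 SP cells. With the 2 leading sequences, carried by 8 of the 55 cells, left out of both groups, the index with CD73+ Treg fell to 0.112. The indices of the CD25+ TRP cells and of other CD4 SP cells were not recalculated without these sequences. The lower value is therefore not set against theirs. The index with CD73- Treg was then 0.439, and the share with CD73- Treg 10.6% (3.55 to 23.1). With CD25+ TRP of other clusters the index was then 1.35. No index has an interval, and few sequences recur within the 55 cells, so these values are imprecise. The 12 cells of cluster 7 alone gave 5.08 with DP.

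Summed expression was compared as the root-mean-square (RMS) log2 ratio, using the gene rows that reached 50 CPM (UMIs of the row per 1000000 UMIs of its group) in either group. The part that counting error alone would give was calculated and taken out in squares. The 83 CD4 SP cells differed from the CD25+ TRP cells of clusters 5 and 7 by an RMS log2 ratio of 0.52 over 3206 rows, with a counting part of 0.33, which leaves 0.39 (counting interval 0.38 to 0.41). They differed from CD4 SP cells of clusters 1 and 2, which hold 1843 of the 2436 CD4 SP cells, by 0.63, which leaves 0.53 (0.51 to 0.54). The CD25+ TRP cells of clusters 5 and 7 differed from the same CD4 SP cells by 0.77, which leaves 0.76. In clusters 1 and 2, by comparison, CD25+ TRP and CD4 SP cells differed by an RMS log2 ratio of 0.06 beyond counting error. That comparison had 742 CD25+ TRP cells and 1843 CD4 SP cells, where the one in clusters 5 and 7 had 83 CD4 SP cells, and variation from cell to cell is not in the counting part. With the CD25+ TRP sums weighted to the cluster mix of the 83 cells, the value for clusters 5 and 7 was 0.35. With Foxp3lo TRP cells of clusters 5 and 7 the RMS log2 ratio of the 83 cells beyond counting error was 0.42, with CD73- Treg cells there 0.56 and with CD73+ Treg cells there 0.69.

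Within cluster 5, CD4 SP and CD25+ TRP cells differed by an RMS log2 ratio of 0.35 beyond counting error, and within cluster 7 by 0.55. The CD4 SP cells of cluster 5 lay 0.51 from CD4 SP of clusters 1 and 2, and the CD25+ TRP cells of cluster 5 lay 0.64 from them. For cluster 7 the values were 1.17 and 1.01. Variation from cell to cell, which 18 cells average out least, was not estimated.

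A score per cell was then taken as the mean log2 ratio of its UMIs between summed profiles, so that a cell with a high score uses more of the transcripts that were higher in the first profile. For CD25+ TRP of clusters 5 and 7 over CD4 SP of clusters 1 and 2, with the scored cell left out, CD4 SP cells of clusters 1 and 2 had a median of -0.099, from -0.22 to 0.040. The CD4 SP cells of cluster 5 had a median of -0.033, from -0.10 to 0.13, and the CD25+ TRP cells of cluster 5 had 0.027, from -0.10 to 0.22. In cluster 7 the medians were 0.11, from -0.0027 to 0.19, for CD4 SP cells and 0.18, from 0.024 to 0.32, for CD25+ TRP cells. The ranges overlapped, and the CD4 SP median was the lower in each cluster. On the scale from CD4 SP of clusters 1 and 2 at 0% to CD25+ TRP of the same cluster at 100%, the CD4 SP cells of cluster 5 stood at 52.2% and those of cluster 7 at 76.0%. In cells of 2000 to 4000 UMIs only, these were 54.7% and 82.8%. On the second score, described next, they were 62.5% and 80.5%. The groups at both ends also made the first score, and the cells were chosen by expression cluster. These positions are therefore descriptions.

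A second score used neither the CD4 SP cells nor the CD25+ TRP cells of clusters 5 and 7, and was made with Foxp3lo TRP and Treg cells of clusters 5 and 7 over CD25+ TRP cells of clusters 1 and 2. It still sets the cluster labels that chose the cells against each other, so its order is a description and no independent support. The order was the same, with medians of -0.089 for CD4 SP of clusters 1 and 2, -0.032 and 0.0027 for CD4 SP and CD25+ TRP of cluster 5, and 0.088 and 0.13 for those of cluster 7. In cluster 5, 26.2% (16.0 to 38.5) of the CD4 SP cells and 53.3% (49.4 to 57.2) of the CD25+ TRP cells scored above 0, with no overlap of the intervals. In cluster 7 it was 16 of 18 CD4 SP cells and 537 of 539 CD25+ TRP cells. Depth moved with these groups as given above. In cells of 2000 to 4000 UMIs only, the first score gave -0.037 for 47 CD4 SP and 0.015 for 407 CD25+ TRP cells of cluster 5, at median depths of 2735 and 3057 UMIs.

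**Figure D4:**
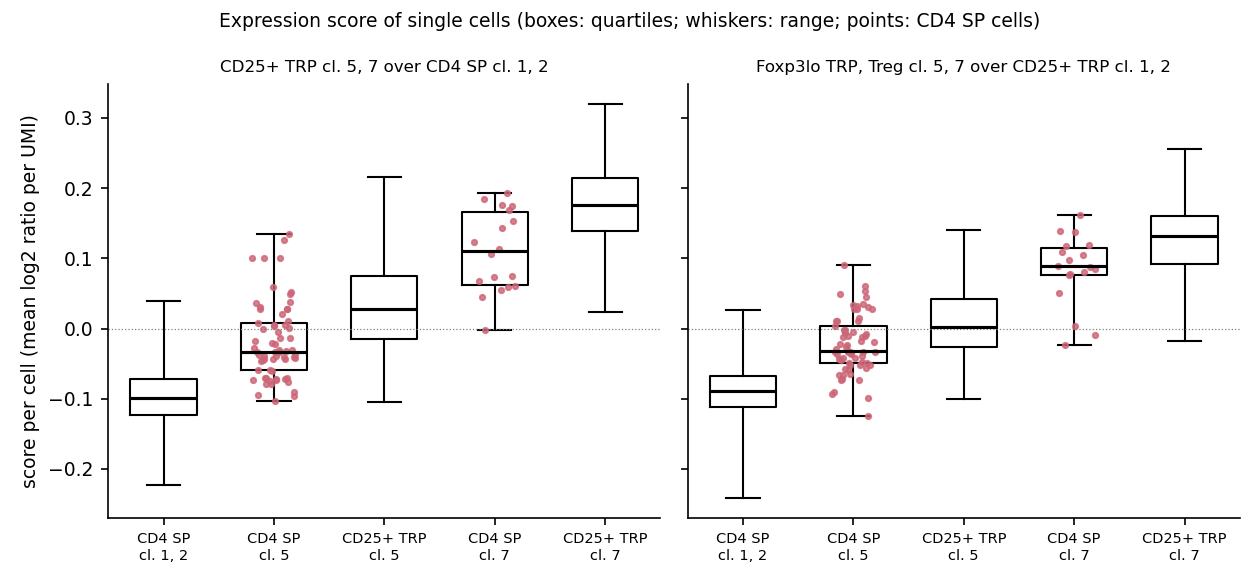
Score per cell (vertical axis, mean log2 ratio per UMI) on the profile pair named above each panel, for CD4 SP cells of clusters 1 and 2 and for CD4 SP and CD25+ TRP cells of clusters 5 and 7. Boxes are quartiles with the median, whiskers the whole range, and red points the 65 and 18 CD4 SP cells. In both panels the CD4 SP median lies above that of clusters 1 and 2 and below that of CD25+ TRP cells of the same cluster.

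Score and repertoire were set side by side. On the first score, the 23 cells whose CDR3α was also in Tregs had a median of -0.013, the 16 shared with progenitors only -0.032, and the 13 found in no other cell -0.027, with ranges of -0.095 to 0.17, -0.091 to 0.18 and -0.10 to 0.17. In that order, 6, 2 and 3 of these cells lay in cluster 7, where scores were higher. The medians are not adjusted for this mix, so their order is not read as a difference between classes. The 24 cells with no chain had a median of 0.034, from -0.059 to 0.19, and 5 of them lay in cluster 7. The 4 cells with more than 1 chain had -0.072, from -0.079 to 0.060. These 4 had 4813 to 5552 UMIs, against a median of 2824 in the 83 cells, and whether any held 2 cells was not tested. The 4 cells with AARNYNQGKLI had a median of -0.016 and the 4 with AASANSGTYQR -0.0044. The 3 cells shared only with other CD4 SP or DP cells ranged from -0.095 to -0.0027. The classes of 23, 16 and 13 cells overlapped over nearly their whole range. The 24 cells with no chain had the highest median of the classes, and the repertoire results do not include them. Whether any class differed from another was not tested.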

How the data were processed

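Gene expression, hashtag and TCRα libraries were made from the same cells by 10x 5′ v2 chemistry (per the labels' protocols). Named in the submitters' processing notes are Seurat 3.1.1, Cell Ranger 3.1.0, GRCm38 and mm10. How cells were filtered, hashtags called or doublets removed was not given in the sources used here. No doublet caller was run. The authors deposited UMI counts for 14790 unnamed gene rows and 12208 cells (34190869 UMIs). The deposited metadata (population, cluster 0 to 14, clonotype) and contig tables (V, J, CDR3, and counts of UMIs and reads per contig) hold other values that were used as given. Joined by barcode, clonotype and CDR3α matched in 6982 of 6982 cells with 1 productive α chain.

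The cells and comparisons were chosen with earlier results of these data known. CDR3α carried by at least 2 of the 83 cells, and segments in at least 4 cells, were named. Those found in a Treg were also to be named, but some are given only by TRAJ segment or as a group. TRAJ7 and the clonotypes' comparison values were chosen after they were seen. The planned naming of genes could not be applied. A clonotype was a CDR3α protein sequence, in cells with exactly 1 productive chain. Germline bases were read from GENCODE M21 transcripts. Summed counts were scaled to CPM with a prior of 1 CPM. The scores were added after seeing the data. Expected values for smaller draws were calculated, not drawn. The scripts used Python 3.11.15, numpy 2.4.6, pandas 2.3.3, scipy 1.17.1 and matplotlib 3.10.9. Only the formulas for the RMS log2 ratio, trimmed mean of M values scaling, smaller draws and Morisita's index were tested on simulated data. The simulated expression counts had no variation from cell to cell.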

Additional observations from a re-analysis of the deposited data

How the results depend on the processing

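The main limit is 83 cells, 55 of them with a single chain, from 1 pool of mice. No paired analysis was possible because every population was sorted and tagged once and no result comes from a test. Values with a binomial interval were compared with that interval, and the others with a factor of 1.5. Matching by CDR3α nucleotide sequence with V and J gene, where the V copy is uncertain, lowered each share. It gave 32.7% with CD4 SP of other clusters, 25.5% with CD25+ TRP of other clusters, 29.1% with CD25+ TRP of clusters 5 and 7, 12.7% with DP, 27.3% with Foxp3lo TRP, 7.27% with CD73- Treg, 20% with CD73+ Treg and with any Treg. The CD25+ TRP cells of clusters 5 and 7 then gave 18.8% with CD4 SP of other clusters, 21.7% with CD25+ TRP of other clusters, 10.7% with DP, 20.6% with Foxp3lo TRP, 13.5% with CD73- Treg, 23.0% with CD73+ Treg and 25.6% with any Treg, an alternative added after seeing the data. So the value with CD73- Treg, near equal by protein sequence, was lower in the CD4 SP cells under this definition, with an interval of 2.02 to 17.6 that holds the value of the CD25+ TRP cells. Morisita's index became 0.136 with DP, 0.178 with CD73- Treg, 0.175 with CD73+ Treg and 0.183 with any Treg. It was not calculated by nucleotide sequence for the comparison groups, so the place between them is known by protein sequence only.

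With each population at the number of CD73- Treg cells, the CD4 SP cells gave 32.4% with CD4 SP of other clusters, 35.6% and 26.8% with CD25+ TRP of other clusters and of clusters 5 and 7, 13.9% with DP, 34.8% with Foxp3lo TRP, 19.6% with CD73+ Treg and 20.2% with any Treg. The CD25+ TRP cells, added after seeing the data, gave 15.9%, 22.0% (other clusters), 9.06%, 23.7%, 22.6% and 23.4%. Without the 2 leading sequences, the share with CD73- Treg was 10.6%, and the index was 0.597 with DP, 0.112 with CD73+ Treg and 0.145 with any Treg. In cluster 7 alone, the share with CD25+ TRP of clusters 5 and 7 was 33.3% and the RMS log2 ratio to CD4 SP of clusters 1 and 2 was 1.17. Genes per cell at 1000 UMIs were 590 and 605. With trimmed mean of M values scaling, the median log2 ratio over gene rows went from 0.11 to -0.017 for CD25+ TRP of clusters 5 and 7 against CD4 SP of clusters 1 and 2, and from -0.015 to 0.059 for the 83 cells against the former, while the RMS log2 ratios stayed at 0.76 and near 0.40.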
